A study of Mus musculus with 7 samples.

Results

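Wnt proteins are secreted, lipid-modified signals that bind Frizzled receptors together with the co-receptors Lrp5 and Lrp6. In the canonical branch this stabilises β-catenin, which joins TCF and LEF factors in the nucleus and turns on targets such as Axin2, while other branches steer cell polarity and calcium. Secreted Frizzled-related proteins, Frzb and Wif1 bind the ligands, Dickkopf proteins act mostly on Lrp5 and Lrp6, and R-spondins slow the removal of Frizzled from the cell surface. In the heart these signals pattern the early cardiac mesoderm, the valves and the epicardium, and they are studied in fibroblasts after injury.

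The genes described here are the array's genes for Wnt ligands, Frizzled and Lrp receptors, secreted antagonists, R-spondins, the CCN proteins Wisp1 to Wisp3, and Axin2, Lef1 and Tcf7. They were chosen by gene name alone: 51 genes on 63 probes, of 34792 gene names on 55670 probes. By role they were 19 ligands, 12 receptors, 10 secreted antagonists, 4 R-spondins, 3 CCN proteins and 3 genes of the target and nuclear factor group.

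The study measured RNA of 7 mouse samples on 1-colour Agilent expression arrays, 1 array per sample, to compare cardiac mesenchymal progenitors (CMPs) from living and from dead hearts. CMPs are stromal cells grown out of heart tissue, here from adult C57BL/6 mice, on collagen I in DMEM/F12 with 10% serum and 40 ng/ml bFGF, a growth factor. The 4 CMP samples came from the atria and the ventricles of a living heart source and of a postmortem one, whose tissue had been kept for 24 h at 4 °C. The heart samples were a commercial adult heart RNA of unstated strain and fetal hearts of embryonic day 16.5 on C57BL/6, 1 wild type and 1 of the line C57BL/6-Tg(Myh6-EGFP)MG2, in which a cardiomyocyte promoter drives a fluorescent protein. How many animals or cultures stand behind a sample is not given in the sources used here, so p-values measure only the spread between these arrays, which may be technical, and the adult heart has no replicate.

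A level below is log2 of the processed signal minus the array's 75th percentile. A probe that the scanner software did not mark as well above background is called dim, and its level there is only a bound. Levels are given in a fixed order: the CMPs (postmortem atrial, then postmortem ventricular, then living atrial and last living ventricular), then adult heart, then fetal heart (wild type, transgenic). Signals of different probes are not on a common scale, so a level is compared only within a gene. Where a side is dim on some of its arrays, or a second probe is quoted on a dim side, the value is the fitted one. In whole-tissue or culture RNA, fewer cells of a type and less RNA per cell cannot be told apart.

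All 12 stromal markers were well above background on all 7 arrays, and their summed level was 10.75 to 11.07 in the CMPs, 7.67 in adult heart and 8.65 to 8.72 in fetal heart. A summed level is log2 of the sum of the markers' unlogged levels, so it follows the brightest probes and does not measure a number of cells. Of 13 cardiomyocyte markers, 2 to 5 were above background on a CMP array and 13 on each heart array, and 7 of them, among them Myh6, Actc1 and Tnni3, were dim on all 4 CMP arrays. Tnnt2 was above background on all 4, at 4.02, 2.73, 4.10 and 0.11. The summed cardiomyocyte level was 0.65 to 4.13 in the CMPs, where Tnnt2 made up most of it, and 11.95 to 13.25 in the hearts. That of 4 erythroid markers was -3.89 to -3.17 in the CMPs and 10.33 to 11.1 in the hearts. The 8 endothelial markers summed to 3.63 to 5.35 in the CMPs against 6.43 to 7.36 in the hearts. The share of these markers in the differences between CMPs and hearts below was not tested. All arrays lay on 1 slide, with the CMPs in row 1 and the hearts in row 2, so slide row and kind of sample cannot be told apart.

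Probes are shown for Frzb, Wisp2 and Sfrp1, which stood above all hearts in every CMP sample, and for Dkk1, Dkk2 and Rspo2, which varied among the CMPs. The first 30 of their 60 bases are printed, with positions of the whole probe on mouse build mm9 as the array files give them. Those of Frzb at chr2:80252582-80252641, Wisp2 at chr2:163658717-163658776, Sfrp1 at chr8:24559438-24559497, Dkk1 at chr19:30621424-30621483, Dkk2 at chr3:131842357-131842416 and Rspo2 at chr15:42852727-42852786 read as follows.
Frzb: gtgcaccagggtgttatttaacagaggtat
Wisp2: gtatttgtaaaaatacacatctcttaaatg
Sfrp1: ttaaaatagtcattccggagagtcagggaa
Dkk1: tactgtgttgtaaatcctcagtgtggcact
Dkk2: tcagagtgatgatgtcatcagaagtttata
Rspo2: ccttaggtcagtttgtccttagattatgaa

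Several genes have probes that disagree, as said beside their values. For Lef1 and Wnt1 both probes are shown. The main Lef1 probe lies at chr3:130926200-130926259. The other is listed over chr3:130907851-130926012, an interval longer than the probe itself. The main Wnt1 probe lies at chr15:98624201-98624260 and the other at chr15:98623276-98623335. Whether a probe lies in a coding exon or an untranslated part was not analysed here.
Lef1, main: actgcaagcgccgacttccaaaaagaaagc
Lef1, other: gtacaggtcccagaatgacagctgcctaca
Wnt1, main: agtggctcctcgcccccaccaatgtagtat
Wnt1, other: tgctgccacgtcagctgccgcaactgcacg

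Of the 51 genes, 21 were well above background on all 7 arrays and 4 on none (Wnt3a, Wnt8a, Rspo4 and Wisp3). The CMPs showed 35 of them on at least 1 array and 25 on all 4. Another 12 were above background in a heart sample and in no CMP, and 0 were seen in CMPs alone. Receptors were the most widely seen group, with 11 of 12 above background on all 4 CMP arrays, against 6 of 10 antagonists, 6 of 19 ligands and 0 of 4 R-spondins. An array held 28 to 32 of the 51 genes above background in the CMPs, 31 in adult heart, 44 in wild-type and 40 in transgenic fetal heart. As shares these were 54.9% to 62.7%, 60.8%, 86.3% and 78.4%, while over all gene names the arrays ranged from 54.6% to 60.8%.

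**Figure D1:**
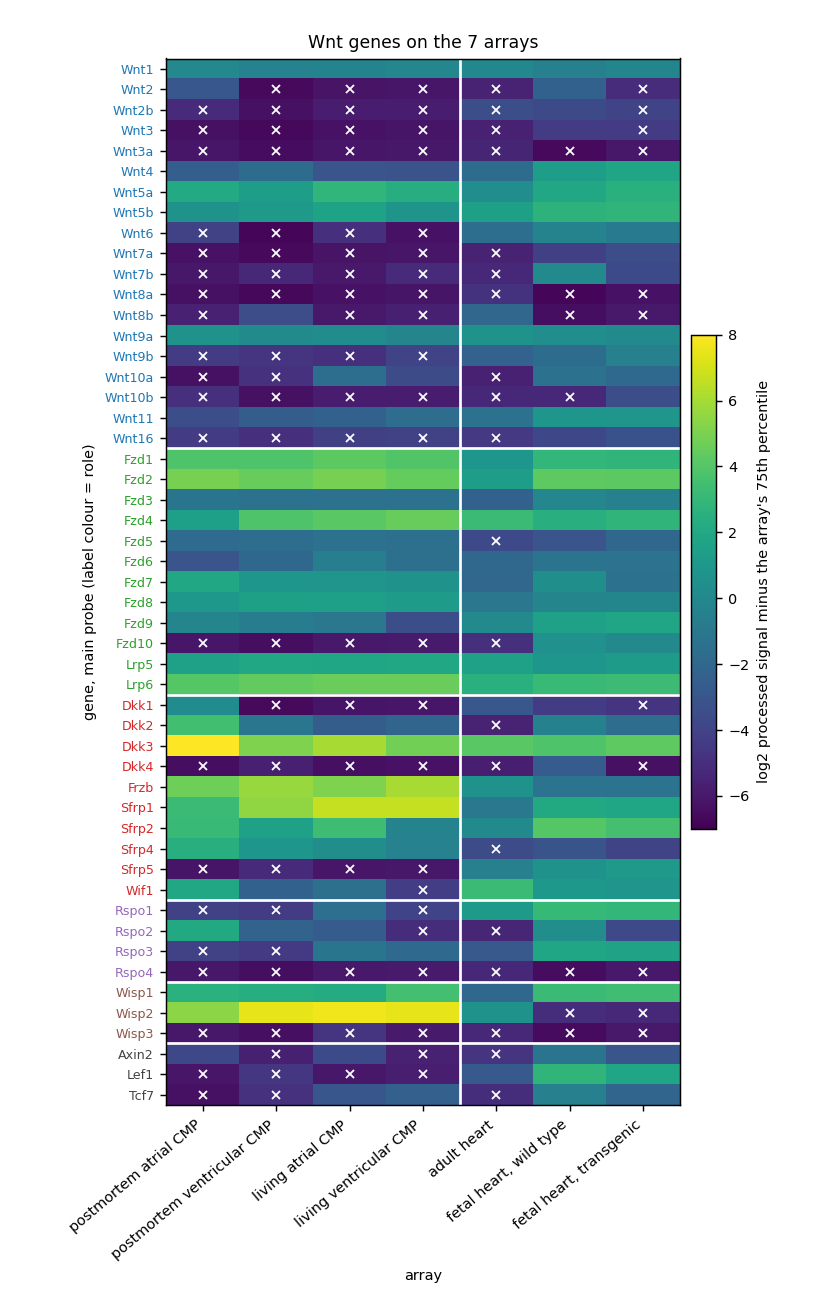
Level of each of the 51 genes (rows, by role) on each of the 7 arrays (columns), as log2 processed signal minus the array's 75th percentile, drawn as colour, with a cross where the probe was dim. Label colours mark the roles. Receptors such as Fzd1, Fzd2 and Lrp6 were above background on every array, whereas 12 genes, among them Sfrp5, Lef1 and Fzd10, were dim in all 4 CMPs and above background in a heart.

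The comparison of CMPs with fetal heart asks how the cultured adult cells differ from the developing organ. The CMPs carried far more RNA of the antagonists Frzb, Sfrp1 and Sfrp4 and of the CCN protein Wisp2. They carried less RNA of 8 ligands, of the R-spondins Rspo1 and Rspo3, and of Lef1, Tcf7 and Axin2. Of the 51 genes, 40 passed the signal filter, which asks for a signal well above background on all arrays of 1 side or the other. Of these, 29 changed at an adjusted p under 0.05 in limma, 10 higher and 19 lower in CMPs (72.5%), where 48.0% of the 20052 genes tested changed, 22.8% higher and 25.2% lower. The median difference of the 40 was -0.78, and that of all genes tested was -0.01. A gene seen on the fetal side alone could pass the filter only by being higher there, so the counts describe the tested genes and not all 51. Of the 24 genes above background on every array of both sides, 15 changed, 9 higher and 6 lower (62.5%), against 45.5% of 16837 genes. The median difference of these 24 was 0.44, against 0.07 for all genes so filtered, so the sign of the median depended on the filter.

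Among the ligands, 0 rose and 8 of 12 tested were lower in CMPs, beside 22.8% higher and 25.2% lower of all genes tested. Of the 8, Wnt6, Wnt7a, Wnt7b and Wnt9b were dim in all CMPs and Wnt10a in both postmortem ones. These entered the test through fetal heart alone, so the filter favoured a lower level in CMPs. Wnt4, Wnt5b and Wnt11 were above background on every array of both sides. Wnt11, a ligand of the non-canonical branch in heart development, stood at -3.42, -2.55, -2.37 and -1.65 in CMPs, -1.37 in adult heart, and 0.88 and 0.84 in fetal heart. All 4 CMP levels lay below both fetal levels, by -3.36 ± 0.25 (SE, adjusted p = 0.00043). Wnt4, known for its part in kidney and gonad formation, stood at -2.46, -1.71, -3.03 and -3.19, -1.68, and 1.35 and 1.87. Its fetal levels were again apart from all others, with a difference of -4.21 ± 0.32 (adjusted p = 0.000489). A second Wnt4 probe, dim on 3 CMP arrays, gave -3.75.

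Wnt6 was dim in all CMPs (-4.12, -6.78, -4.96 and -6.26) and read -1.56 in adult heart and -0.27 and -0.78 in fetal heart, at least 14.5-fold above the CMPs in fetal heart (adjusted p = 0.000675). Wnt9b, a ligand made by endocardial cells of forming valves, was also dim in all CMPs (-4.42, -4.75, -4.96 and -3.90) against -2.30 in adult and -1.68 and -0.49 in fetal heart. Its fetal mean was at least 9.15-fold above the CMPs (adjusted p = 0.00362). Wnt7b was dim outside the fetal hearts, which themselves differed, at 0.15 in the wild type and -3.62 in the transgenic sample. It was at least 6.84-fold higher in fetal heart (adjusted p = 0.0275), and the fitted difference of -3.90 became -2.02 (adjusted p = 0.0447) without the wild-type array. Wnt7a was at least 1.65-fold higher in fetal heart (adjusted p = 0.00658).

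Wnt5b stood at 0.72, 1.14, 1.68 and 0.76 in CMPs, 1.51 in adult heart, and 2.70 and 2.79 in fetal heart, a difference of -1.67 ± 0.29 (adjusted p = 0.00634). Its call was lost without the transgenic fetal array (adjusted p = 0.0527). Wnt5a, the best known non-canonical ligand, did not pass: it stood at 2.16, 1.33, 2.90 and 2.37 in CMPs and 1.92 and 2.53 in fetal heart, with the groups overlapping. Wnt9a and Wnt1 also overlapped between CMPs and fetal heart. The main Wnt1 probe held nearly the same level on all 7 arrays, from -0.46 to 0.06, while the other Wnt1 probe was dim on all 7, so the 2 probes gave different answers on whether Wnt1 RNA was present. Wnt10a, at -6.35 and -4.89 (both dim), -1.56 and -3.51 in CMPs, passed against fetal heart (-1.38 and -1.89) with a difference of -2.45 ± 0.72 (adjusted p = 0.0371), although the living atrial CMPs lay between both fetal levels.

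Among the receptors, 5 of 12 tested were higher and 3 lower in CMPs. Lrp6, a co-receptor of the canonical branch, stood at 4.04, 4.39, 4.60 and 4.60 in CMPs, 2.53 in adult heart, and 3.09 and 3.28 in fetal heart. All CMP levels exceeded all heart levels, and the difference from fetal heart was 1.22 ± 0.15 (adjusted p = 0.00216). Fzd1 stood at 3.89, 3.85, 4.23 and 3.94, 0.89, and 2.93 and 2.82, a difference of 1.10 ± 0.15 (adjusted p = 0.00251). Fzd8 stood at 0.98, 1.55, 1.44 and 1.31, -1.04, and -0.15 and -0.14, a difference of 1.46 ± 0.22 (adjusted p = 0.0038). These 3 receptors had narrow CMP ranges and no overlap with either kind of heart.

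Lrp5, the other canonical co-receptor, was higher by 0.81 ± 0.19 (adjusted p = 0.0169), and that call was lost without the wild-type fetal array (adjusted p = 0.0779). Fzd2 was higher by only 0.46 ± 0.13 (adjusted p = 0.0351), a call lost under 11 of the alternatives run. Its second probe gave 0.08. Fzd10 was dim in all CMPs and in adult heart (-6.46 to -4.98) and read 0.56 and 0.04 in fetal heart, at least 28-fold above the CMPs (adjusted p = 0.000249). Fzd9 stood at -0.18, -0.67, -1.05 and -3.38 in CMPs, 0.15 in adult heart, and 1.59 and 1.90 in fetal heart, a difference of -3.06 ± 0.40 (adjusted p = 0.00245). Fzd3 differed by -1.06 ± 0.26 (adjusted p = 0.0202), a call lost without the wild-type fetal array (adjusted p = 0.091). Fzd4, Fzd5, Fzd6 and Fzd7 did not pass, Fzd7 with a difference of 1.53 ± 0.53 (adjusted p = 0.0615). The second Fzd5 probe gave a difference of 2.85, against 0.97 on the main one.

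Among the secreted antagonists, 4 of 8 tested were higher and 3 lower in CMPs. Frzb, also known as Sfrp3, stood at 4.70, 5.67, 5.08 and 6.01 in CMPs, 0.65 in adult heart, and -1.29 and -1.28 in fetal heart. Its lowest CMP level was above every heart level, and the mean difference from fetal heart was 6.65 ± 0.14, or 100-fold (adjusted p = 2.7e-05). Sfrp1 stood at 3.25, 5.51, 6.70 and 6.69, -0.99, and 2.09 and 1.90, a difference of 3.54 ± 0.44 (adjusted p = 0.00204). Its 4 CMP levels also lay above all heart levels, with the postmortem atrial sample the lowest of them.

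Sfrp4 stood at 2.40, 0.90, 0.44 and -0.34 in CMPs, -3.56 in adult heart where it was dim, and -3.12 and -3.90 in fetal heart, a difference of 4.36 ± 0.34 (adjusted p = 0.000495). Dkk3, a divergent Dickkopf that is not a classical Lrp ligand, stood at 7.99, 5.09, 6.06 and 4.82, 4.14, and 3.89 and 4.26. It was above the hearts on every CMP array, by 1.91 ± 0.35 against fetal heart (adjusted p = 0.0073), a call lost without the wild-type fetal array (adjusted p = 0.0658). Sfrp5, which is also a fat-derived hormone, ran the other way: dim in all CMPs (-6.16 to -5.23), it read -0.48 in adult heart and 0.68 and 1.14 in fetal heart, at least 42.8-fold higher there (adjusted p = 2e-04).

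Sfrp2 stood at 3.1, 1.56, 3.37 and -0.30 in CMPs, 0.18 in adult heart, and 4.02 and 3.55 in fetal heart, a difference of -1.85 ± 0.43 (adjusted p = 0.0176), lost without either fetal array (adjusted p = 0.127 and 0.0728). Wif1, which binds Wnt ligands directly, stood at 1.96, -2.32, -1.48 and -4.26 (dim) in CMPs, 3.21 in adult heart, and 1.02 and 0.82 in fetal heart. Its fitted difference from fetal heart was -2.44 ± 0.35 (adjusted p = 0.00309), but the postmortem atrial CMPs lay above both fetal hearts. The fit removes the mean difference between chambers from the spread. Where the 4 CMP arrays were instead taken as 1 group, the fetal calls of Wif1 (adjusted p = 0.231), Sfrp2 (0.172), Wnt10a (0.144), Dkk3 (0.107), Tcf7 (0.0815) and Fzd2 (0.0812) were lost.

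Of the R-spondins, Rspo1 stood at -4.04, -4.38, -1.51 and -3.98 in CMPs, dim on all but the living atrial array, against 1.16 in adult heart and 3.07 and 2.91 in fetal heart. The difference from fetal heart was -6.47 ± 0.46 (adjusted p = 0.000396). Rspo3 stood at -4.08 and -4.46 (both dim), -1.16 and -1.88 in CMPs, -2.80 in adult heart, and 1.84 and 1.66 in fetal heart, a difference of -4.65 ± 0.26 (adjusted p = 0.00023). Both R-spondins were thus apart from fetal heart on every CMP array. Rspo2 varied widely within both groups, at 2.09, -2.20, -2.62 and -5.05 (dim) in CMPs and 0.39 and -3.68 in fetal heart, and did not pass.

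Wisp2, a secreted matrix-associated protein also called Ccn5, stood at 5.37, 7.43, 7.69 and 7.47 in CMPs and 0.68 in adult heart, and was dim in fetal heart at -5.06 and -5.30. On the processed signal it was at least 2900-fold higher in CMPs than in fetal heart (fitted difference 12.17 ± 0.45, adjusted p = 9.7e-05). Under the alternatives run, the fitted difference of Wisp2 ranged from 9.13 to 12.74. Wisp1, or Ccn4, did not follow it: at 2.56, 2.32, 2.25 and 3.5 in CMPs and 3.20 and 3.41 in fetal heart, its groups overlapped.

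The 3 genes of the target and nuclear factor group were all lower in CMPs than in fetal heart. None of the 3 was above background on every CMP array. They entered the test through fetal heart alone, so the filter favoured the lower direction. Other genes often used as readouts of the canonical branch did not share this direction as a group and are given further below. Lef1, a nuclear partner of β-catenin, was dim in all CMPs (-6.07, -4.62, -6.01 and -5.73) and read -2.82 in adult heart and 2.79 and 1.79 in fetal heart, at least 104-fold above the CMPs (adjusted p = 0.000238). Its other probe gave a fitted difference of -7.17. Tcf7, which encodes TCF1, was dim in postmortem CMPs (-6.34 and -4.86), read -2.96 and -2.40 in living CMPs, was dim in adult heart (-5.03), and read -0.48 and -2.09 in fetal heart. Its difference from fetal heart was -2.85 ± 0.55 (adjusted p = 0.00918).

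Axin2, a scaffold that limits β-catenin and is a direct target of the pathway, stood at -3.72, -5.68 (dim), -3.61 and -5.61 (dim) in CMPs, -4.73 (dim) in adult heart, and -1.24 and -3.02 in fetal heart. The difference from fetal heart was -2.52 ± 0.57 (adjusted p = 0.0158). Without the wild-type fetal array it was -1.63 (adjusted p = 0.0557), and the call was lost. A second Axin2 probe was dim in all CMPs and gave a fitted difference of -1.91.

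**Figure D2:**
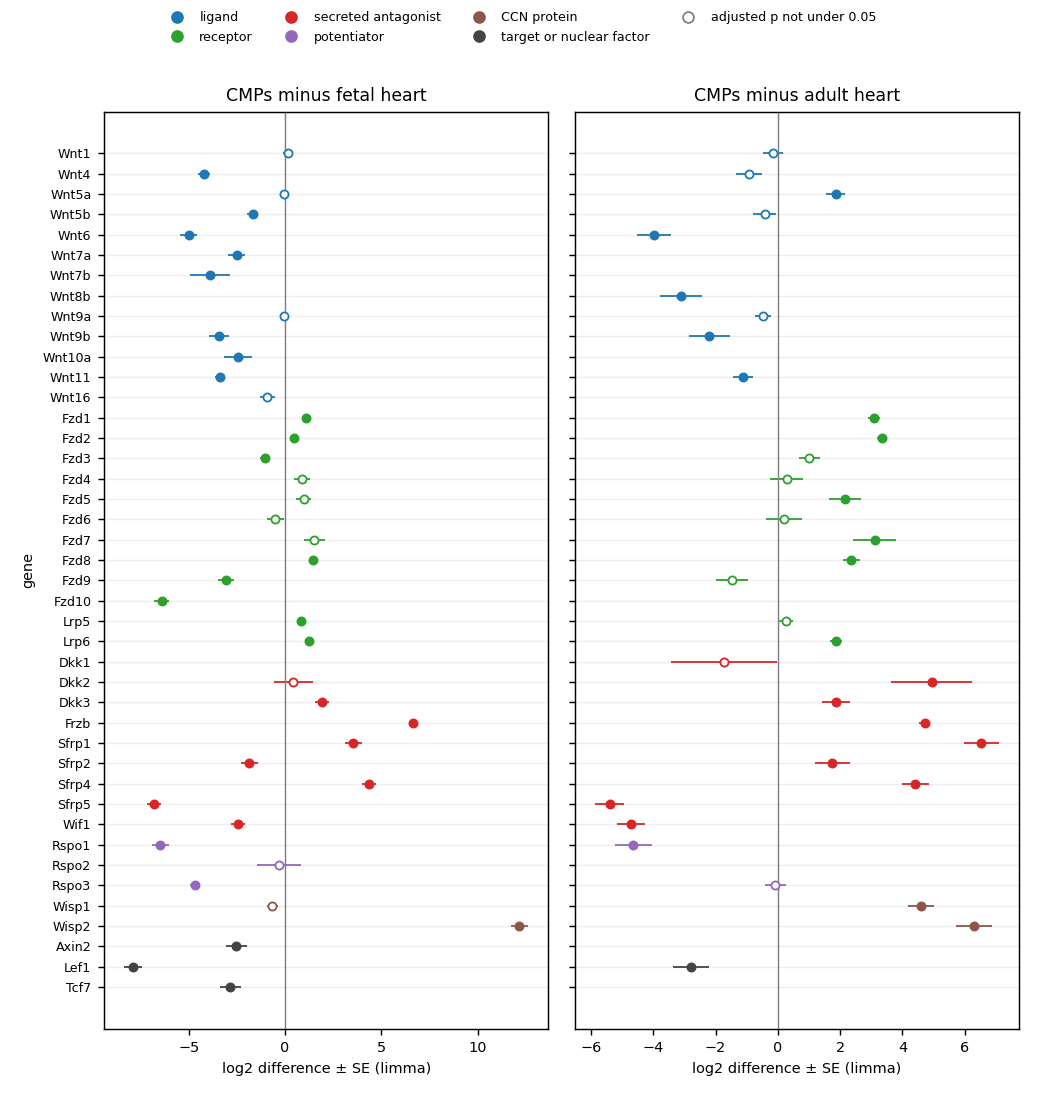
Difference of the CMPs from fetal heart (left panel) and from adult heart (right panel) for each tested gene, in log2 units ± SE from limma, coloured by role, with open points where the adjusted p was not under 0.05. Frzb, Sfrp1, Sfrp4 and Wisp2 lie right of 0 in both panels, and Sfrp5, Rspo1, Wnt6 and Lef1 left of 0. The panels share the CMP arrays, and a gene with no point was not tested.

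Against adult heart, 34 of the 51 genes passed the signal filter and 23 changed, 15 higher and 8 lower in CMPs (67.6%), beside 49.3% of the 20278 genes tested, 24.6% in each direction. The median difference was 0.27 for the tested genes and 0 for all. Of the 22 genes above background on every array of both sides, 14 changed, 13 higher and 1 lower (63.6%), against 44.8% of 16323 genes. The median difference of these 22 was 1.8, against 0.12 for all genes so filtered. Here the receptors that passed moved one way: 6 of 11 tested were higher and 0 lower. Fzd9 did not pass in limma but stood lower on every CMP array, by -1.47 ± 0.52 (adjusted p = 0.0627). The adult heart is 1 array, so its own spread is taken from the other groups.

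Fzd2 was higher in CMPs by 3.34 ± 0.17 (adjusted p = 3e-04), Fzd7 by 3.11 ± 0.69 (0.0144), Fzd1 by 3.09 ± 0.19 (0.000389), Fzd8 by 2.36 ± 0.28 (0.00204) and Lrp6 by 1.87 ± 0.20 (0.00141). Second probes gave 5.90 for Fzd2, where adult heart was dim, and 1.68 for Fzd7. Fzd7 stood at 1.92, 0.90, 0.84 and 0.66 in CMPs, -2.03 in adult heart, and 0.46 and -1.36 in fetal heart. Fzd5 was dim in adult heart and at least 3.66-fold higher in CMPs (adjusted p = 0.0182). Its CMP levels, -1.77, -1.60, -1.35 and -1.44, held within a narrow range.

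Sfrp1 differed from adult heart by 6.53 ± 0.57 (adjusted p = 0.000857), Frzb by 4.71 ± 0.18 (2e-04) and Dkk3 by 1.85 ± 0.45 (0.0193). Sfrp4 was at least 19.1-fold higher (adjusted p = 0.00114). Dkk2, a Dickkopf that can act for or against the pathway, stood at 3.43, -1.12, -2.55 and -2.09 in CMPs, -5.52 (dim) in adult heart, and -0.40 and -1.63 in fetal heart, and was at least 7.09-fold higher in CMPs than in adult heart (adjusted p = 0.0253). Wif1 and Sfrp5 were the antagonists with the opposite direction, Wif1 by -4.73 ± 0.45 (adjusted p = 0.00101) and Sfrp5 at least 16.3-fold lower (0.000863). Sfrp2 passed with 1.75 ± 0.56 (adjusted p = 0.047), yet the adult level lay within the CMP range.

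Wisp2 differed by 6.31 ± 0.58 (adjusted p = 0.000948) and Wisp1 by 4.60 ± 0.41 (0.000878), so both CCN proteins were higher in CMPs than in adult heart. Wnt5a was the ligand that was higher, by 1.85 ± 0.29 (adjusted p = 0.00469), with every CMP level above 0.34. Wnt6 (at least 7.09-fold, adjusted p = 0.0032), Wnt9b (at least 3.94-fold, 0.0374), Wnt8b (difference -3.11 ± 0.68, 0.0139) and Wnt11 (-1.13 ± 0.32, 0.0317) were lower. Wnt8b stood at -5.60, -3.43, -5.98 and -5.68 in CMPs, above background only in the postmortem ventricular sample, at -2.06 in adult heart, and was dim in fetal heart. Its second probe was dim on all 7 arrays, so the 2 Wnt8b probes gave different answers on whether its RNA was present. Rspo1 was lower by -4.64 ± 0.59 (adjusted p = 0.00237).

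Lef1 was at least 3.01-fold lower in CMPs than in adult heart on the main probe (fitted difference -2.79 ± 0.59, adjusted p = 0.0121), and -6.12 on the other, where adult heart read -0.17. With the 4 CMP arrays as 1 group, the adult calls of Wif1 (adjusted p = 0.086), Dkk2 (0.0931), Wnt11 (0.161), Dkk3 (0.2) and Sfrp2 (0.296) were lost. The call of Wnt11 was lost without any 1 of the CMP arrays (adjusted p = 0.0583 to 0.0875), and those of Dkk2 (0.0621 and 0.0622) and Sfrp2 (0.096 and 0.0961) without either fetal array.

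A background correction that adds an offset (normexp) shrank differences that rest on dim signals. A fold given as "at least" rests on the processed signal and need not hold under normexp. The still called genes named here are those whose log2 difference shrank by the largest share. Against fetal heart Lef1 became -4.39, Sfrp5 -3.29, Sfrp4 2.90, Fzd10 -2.90, Wnt6 -2.11, Wnt9b -1.44, Tcf7 -1.25, Axin2 -0.98 and Wnt10a -0.98, all still called. Wnt7a (-0.47, adjusted p = 0.183) and Wnt7b (-1.43, adjusted p = 0.0524) were lost. Over all alternatives run, the smallest differences from fetal heart were 9.13 for Wisp2, -4.62 for Rspo1 and -3.25 for Rspo3. Against adult heart Rspo1 became -2.84, Sfrp4 2.61, Sfrp5 -2.17, Wnt6 -1.46 and Wnt8b -1.05, still called, and Dkk2 (1.82, adjusted p = 0.163), Fzd5 (0.69, 0.147), Lef1 (-0.88, 0.114) and Wnt9b (-0.91, 0.0924) were lost.

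**Figure D3:**
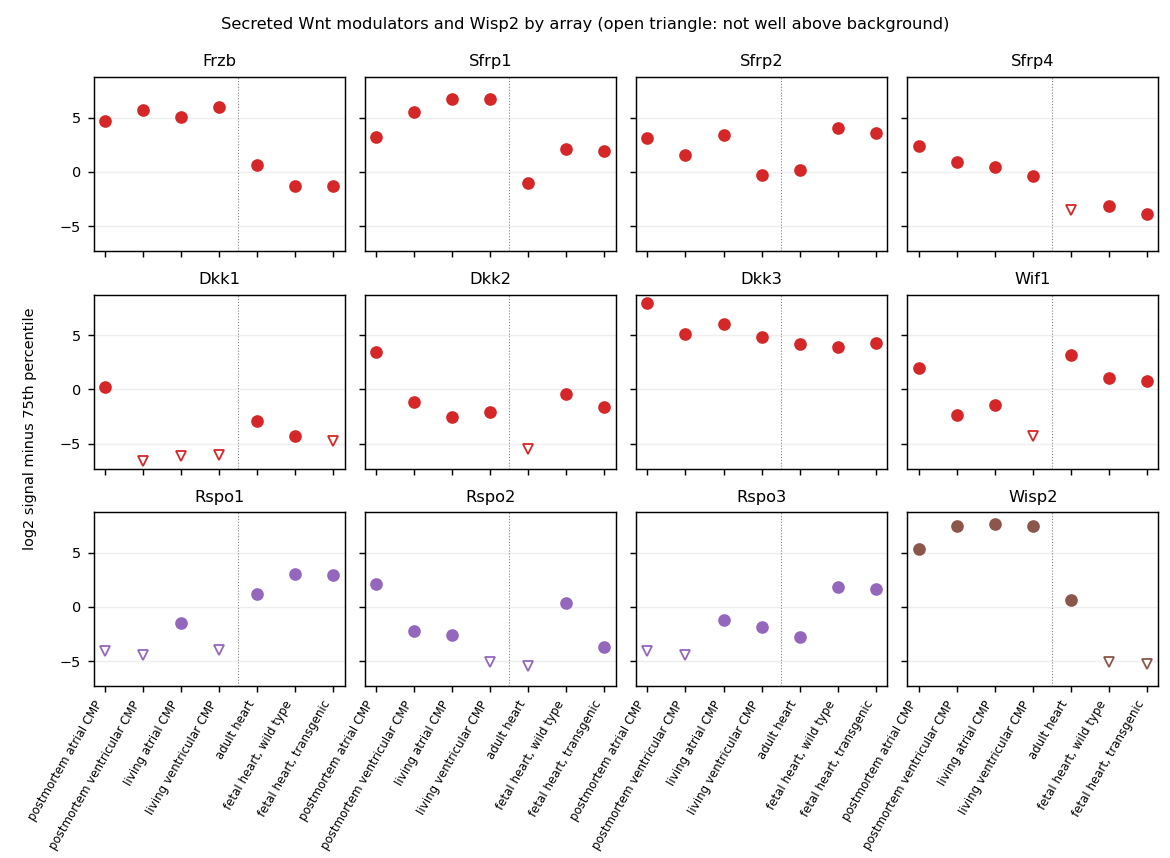
Level on each of the 7 arrays (1 point an array, log2 processed signal minus the 75th percentile) of secreted modulators and Wisp2, with an open triangle where the probe was dim. Frzb, Sfrp1 and Wisp2 lie above all hearts in every CMP sample, whereas Dkk1, Dkk2, Wif1 and Rspo2 spread over several log2 units among the CMPs.

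The adult and fetal hearts differed from each other, and as the adult RNA was of another source and of unstated strain, age cannot be told apart from these. Of 42 tested genes, 18 changed between adult and fetal heart, 4 higher and 14 lower in the adult (42.9%), beside 37.0% of 20946 genes, 18.8% higher and 18.2% lower. The median difference was -1.59 for the tested genes and 0.09 for all. Lower in the adult were the receptors Fzd10 (at least 13.1-fold, adjusted p = 0.00237), Fzd2 (-2.88 ± 0.19), Fzd3 (-2.08 ± 0.37) and Fzd1 (-1.99 ± 0.21). The nuclear factors Lef1 (-5.11 ± 0.64) and Tcf7 (dim in the adult, at least 4.35-fold), the R-spondin Rspo3 (-4.55 ± 0.37) and the CCN protein Wisp1 (-5.24 ± 0.44) were lower as well. So were the ligands Wnt4, Wnt11 and Wnt5a, by -3.29 to -1.88, the ligand Wnt10a (dim in the adult, at least 3.42-fold), and the antagonists Sfrp2 (-3.60 ± 0.61) and Sfrp1 (-2.99 ± 0.62).

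Higher in the adult were Wisp2 (at least 36.6-fold, adjusted p = 0.00261), Wnt8b (at least 5.46-fold, 0.0112), Wif1 (2.29 ± 0.49, 0.0181) and Frzb (1.94 ± 0.20, 0.00232). Leaving out a fetal array ended the calls of Sfrp1 (adjusted p = 0.0747 and 0.0579), Wif1 (0.0614 and 0.0652) and Wnt10a (0.113 and 0.0783), and leaving out the wild type that of Sfrp2 (0.0503). Under normexp Tcf7 (-1.16, adjusted p = 0.085) and Wnt10a (-1.17, 0.0547) were lost, while Wisp2 (2.94), Wnt8b (1.19), Fzd10 (-2.09) and Fzd3 (-1.14) were smaller but called. The second probes of Lef1 (-1.05) and Fzd2 (-5.83) gave other sizes in the same direction. The 3 comparisons among CMPs, adult and fetal heart share arrays and are not independent.

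The main question of the study, whether CMPs from postmortem tissue keep the profile of CMPs from living tissue, was tested over both chambers. None of the 30 tested genes changed at an adjusted p under 0.05 in limma, where 20 of 19013 genes did (0.105%, of which 0.00526% higher and 0.0999% lower). At an unadjusted p under 0.05 there were 15 of the 30 (50%) and 2101 of all genes (11.1%). With 2 arrays a side, a missed threshold does not show that the levels were alike.

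Several genes stood higher in the postmortem samples of both chambers without passing. Wif1 differed by 3.44 in atria and 1.94 in ventricles, a mean of 2.69 ± 0.40 (adjusted p = 0.162). Sfrp4 differed by 1.97 and 1.24 (1.60 ± 0.38, adjusted p = 0.285). Rspo2, an R-spondin with strong activity on the canonical branch, differed by 4.71 and 2.85 (3.78 ± 1.32, adjusted p = 0.398), and Fzd9 by 0.88 and 2.71 (1.79 ± 0.46, adjusted p = 0.308). Postmortem and living levels did not overlap in Sfrp4, Rspo2 and Fzd9, while in Wif1 the living atrial level lay above the postmortem ventricular one. Wif1 and Rspo2 were dim in living ventricular CMPs.

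Other genes stood lower in both postmortem samples. Rspo3 was dim on both postmortem arrays and above background on both living ones, at least 6.7-fold apart on the processed signal (adjusted p = 0.0675). Tcf7 showed the same split, at least 4.14-fold (adjusted p = 0.257), although its second probe was dim in all CMPs. So did Wnt10a, at least 4.61-fold (adjusted p = 0.31). Under the alternatives run, the log2 difference shrank to as little as -1.19 for Rspo3, -0.84 for Tcf7 and -1.04 for Wnt10a. Sfrp1 differed by -3.45 in atria and -1.18 in ventricles, and its fitted difference was -2.32 ± 0.51 (adjusted p = 0.257). Fzd4, a Frizzled that also binds Norrin in vessel growth, differed by -2.74 and -0.67 (-1.70 ± 0.48, adjusted p = 0.326).

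On their main probes, a further set of genes held nearly the same level in all 4 CMP samples. Fzd3 spanned -1.36 to -1.17, and Fzd1, Fzd2, Lrp5, Lrp6, Fzd5, Fzd8 and the main Wnt1 probe each spanned less than 1 log2 unit. For Fzd2, the postmortem minus living difference was 0.04 ± 0.15, for Fzd1 -0.21 ± 0.17 and for Lrp5 -0.11 ± 0.22. The second Fzd2 probe was less even, at 1.22, 0.57, 0.81 and -0.16, a postmortem minus living difference of 0.57. On the main Fzd2 probe both ventricular levels lay below both atrial ones (-0.44 ± 0.15, adjusted p = 0.544).

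**Figure D4:**
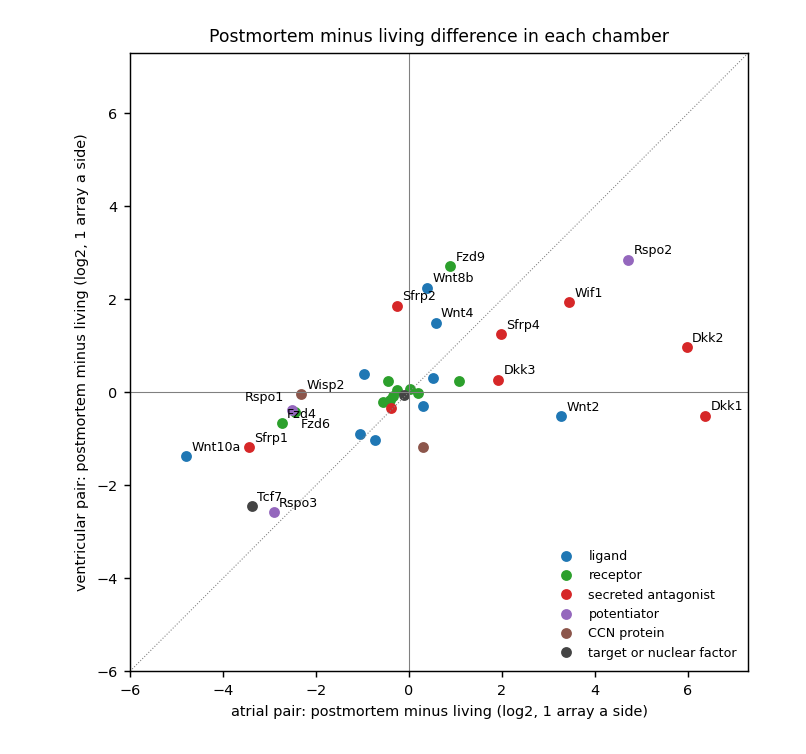
Postmortem minus living difference in the atrial pair (x axis) and the ventricular pair (y axis) for genes above background on at least 1 CMP array, in log2 units, 1 array a side. Points on the dotted line differ equally in both chambers. Dkk2 lies far to the right (5.97) with a ventricular difference of 0.97, and Dkk1 was dim on all CMP arrays but the postmortem atrial one, so its ventricular value has no order.

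The chamber pairs did not always run together. The test of that difference called 5 of 30 genes (16.7%), 4 higher and 1 lower, where 2.41% of 19013 genes were called, 1.63% higher and 0.778% lower. This fit has 1 residual degree of freedom, which the fetal arrays alone supply, so its spread is not that of CMP cultures. The count was 0 after quantile normalization and 1, Dkk2, without a trend in the spread, and 80% of the calls were higher, against 57.1% under normexp.

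Dkk2 differed by 5.97 in the atrial pair and 0.97 in the ventricular pair, a gap of -5.0 ± 0.89 (adjusted p = 4e-06). Sfrp1 (2.27 ± 0.53, adjusted p = 0.0019), Wisp2 (2.28 ± 0.54, 0.00215) and Fzd4 (2.06 ± 0.53, 0.00709) were lower by more in the atrial pair. Wisp2 differed by -2.33 in the atria and -0.05 in the ventricles. Sfrp2 differed by -0.26 in the atria and 1.86 in the ventricles (2.12 ± 0.55, adjusted p = 0.00829).

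Much of this turned on the postmortem atrial sample. There Dkk1, the classical Lrp-binding antagonist, read 0.22 while it was dim in the other CMPs (-6.59 to -6.08). In the same sample Dkk2, Dkk3, Rspo2 and Wif1 had their highest level among the CMPs, and Sfrp1, Fzd4 and Wisp2 their lowest. It lay over 1 log2 unit beyond the other 3 CMP samples for 14 of the 35 genes seen in CMPs, 8 higher and 6 lower (40%), against 11.7% of 21827 genes. Dkk1 and Wnt2 are among the 8 and were seen in CMPs only there, so they had to differ. Wnt10a and Tcf7 are among the 6 and were dim in both postmortem samples, so the order of those 2 samples is not known for them. Over the 25 genes above background on all 4 CMP arrays the count was 8, 4 in each direction (32%), against 6.68% of 17517 genes. For the living ventricular sample it was 2 of 25 (8%, against 1.02%), and for the postmortem ventricular and living atrial samples 0 of 25 (against 0.691% and 0.639%). Of the 8 pericyte and smooth muscle markers 5 were above background in the postmortem atrial sample and 4 to 5 in the other CMPs. Their sum, in which Acta2 weighed most, was 6.71 there against 7.02 to 7.71. Among them Rgs5 (3.25) and Cspg4 (2.95) had their highest CMP level there and Acta2 (6.33) and Notch3 (2.75) their lowest. Abcc9 was above background there (-3.28) and dim in the other CMPs. Kcnj8 and Des were dim in all CMPs, and Myh11 was dim in both atrial samples. The endothelial markers summed to 3.63 against 4.64 to 5.35, with Tek dim. The part of these cells in the result was not tested.

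Between chambers, none of the 28 tested genes changed, and 0 of 18912 genes did (0%), while at an unadjusted p under 0.05 there were 12 (42.9%) and 1563 (8.26%). Wif1 was the closest, lower in ventricular CMPs by 2.78 in the living and 4.28 in the postmortem pair (fitted difference -3.53 ± 0.40, adjusted p = 0.13). It passed when no filter was put on dim probes (adjusted p = 0.0392). Sfrp2 differed by -3.66 and -1.54 (-2.60 ± 0.50, adjusted p = 0.254) and Dkk3 by -1.24 and -2.90 (-2.07 ± 0.40, adjusted p = 0.254). Both had their atrial levels above their ventricular levels in each source. Frzb ran the other way, by 0.93 and 0.97 (0.95 ± 0.16, adjusted p = 0.197), with a nearly equal size in both pairs. Axin2 was above background on both atrial arrays and dim on both ventricular ones, at least 2.03-fold apart on the processed signal (adjusted p = 0.515). Its second probe was dim in all CMPs and gave -0.52. Under the alternatives run, the fitted difference of Axin2 ranged from -2.06 to -0.36.

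Leaving out 1 CMP array leaves a single pair in a chamber or source, and its spread then comes from the fetal pair alone. The counts rose in those fits, to 5 to 14 genes for postmortem against living and 4 to 10 for the chambers. Rspo3 and Rspo2 were called for postmortem against living without any 1 of the 4 CMP arrays (Rspo3 -2.91 to -2.58, adjusted p = 3.94e-05 to 0.00397), as was Wif1 in both comparisons and Sfrp2 between chambers. These fits assume that a lone CMP sample varies as the fetal hearts do.

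Of 69 further pathway genes, listed by function, all 69 were on the array. Against fetal heart 14 of 64 tested were higher in CMPs and 17 lower, 48.4% beside 48.0% of all genes tested, and against adult heart 26 of 58 were higher and 7 lower, 56.9% beside 49.3%. Between adult and fetal heart 5 of 64 were higher in the adult and 23 lower, 43.8% beside 37.0%. Among the 69 were 8 other genes often used as readouts of the canonical branch. They were Sp5, Myc, Ccnd1, Cd44, Fosl1, Twist1, Bambi and Tnfrsf19. Cd44 is also 1 of the 12 stromal markers above, so the readouts are not independent of those markers. Against fetal heart 4 of 7 tested were higher in CMPs and 1 lower, beside 22.8% and 25.2% of all genes. Against adult heart 5 of 6 tested were higher and 1 lower, beside 24.6% each way. Between adult and fetal heart 0 of 6 were higher in the adult and 6 lower. In postmortem against living CMPs and between chambers, 0 of 55 changed. In the test between chamber pairs, Daam1 and Apcdd1 were higher and Nkd1 lower, of 55 tested (5.45%, beside 2.41%).

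Wls, which carries Wnt proteins to the cell surface, stood at 4.95, 4.74, 4.56 and 4.75 in CMPs, 1.97 in adult heart, and 3.07 and 3.47 in fetal heart. It rose by 1.48 against fetal and 2.78 against adult heart. Ctnnb1, which encodes β-catenin, stood at 4.53, 4.49, 4.34 and 4.19, 3.77, and 4.65 and 4.54. Of the R-spondin receptors, Lgr5 read -0.41 and -2.38 in fetal heart and -6.36 to -3.55 in CMPs, where it was dim on all but 1 array. The Frizzled ligase Rnf43 read 0.83 and -2.05 in fetal heart and was dim in all CMPs, at least 14.9-fold lower. Nkd2, an inhibitor that binds Dishevelled, rose by 3.47 and 2.41 in CMPs against fetal and adult heart. Ror2, a receptor of Wnt5a, was lower than in fetal heart (-2.65) and higher than in adult heart (1.30).

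Promoters from RefSeq (GRCm38.p6) were found for 33 of the 51 genes, as 40 promoters of 250 bases before to 50 after a start. They were searched on both strands for the motif CTTTGAA, for the motif CTTTGAT, for the motif CTTTGTA and for the motif CTTTGTT, forms of the sequence that TCF and LEF factors bind. At least 1 was found in 6 of the 40 (15%), beside 16.9% of 32851 promoters of all genes. Shown are the 250 bases before the start of Dkk1 (chr19:30549497-30549746, minus strand), the gene that separated the postmortem atrial sample, with matches in capitals. Dkk1 held 2 matches, at -117 and -98, and 1.94% of all promoters held 2 or more. The first of the Wnt11 promoters (chr7:98834862-98835111, plus strand) held 1, at -51 on the opposite strand. Axin2 (chr11:108920099-108920348, plus strand), shown because it is a known target, held 0 in this window. A match is a description of letters, not a site.
Dkk1: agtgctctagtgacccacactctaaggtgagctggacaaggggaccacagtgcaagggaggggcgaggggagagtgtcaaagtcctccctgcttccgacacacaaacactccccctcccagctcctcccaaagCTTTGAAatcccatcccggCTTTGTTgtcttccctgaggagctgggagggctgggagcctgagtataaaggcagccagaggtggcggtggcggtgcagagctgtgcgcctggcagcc
Wnt11: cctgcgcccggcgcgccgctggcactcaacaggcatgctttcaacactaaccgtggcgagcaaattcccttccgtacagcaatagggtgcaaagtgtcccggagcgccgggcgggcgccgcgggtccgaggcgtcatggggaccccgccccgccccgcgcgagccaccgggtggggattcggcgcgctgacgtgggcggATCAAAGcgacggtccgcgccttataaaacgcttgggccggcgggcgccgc
Axin2: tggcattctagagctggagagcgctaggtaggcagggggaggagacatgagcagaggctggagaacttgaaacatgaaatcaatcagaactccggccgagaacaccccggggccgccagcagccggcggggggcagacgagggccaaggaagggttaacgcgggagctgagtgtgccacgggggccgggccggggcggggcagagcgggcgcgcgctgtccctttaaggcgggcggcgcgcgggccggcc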

How the data were processed

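Total RNA of 7 mouse samples, 250 ng each, was labelled with Cy3 and hybridised, 1 array per sample. The authors deposited scanner tables whose intensity columns hold background-subtracted processed signals. Per the file headers these came from Feature Extraction 10.7.3.1 of Agilent, and per the submitters' processing notes from 9.5.3. The tables also carry flags for signal above background. They also deposited a table of log2 values, which differed from log2 of the processed signals by 1 constant an array, within 0.001.

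Spots of a probe were averaged, 11 probes with outlier flags were left out, and 55670 remained; no spot was saturated. Precision is limited by the number of arrays. Of several probes of a gene, the brightest on average stood for it. The value was log2 signal minus the array's 75th percentile. Differences were tested two-sided with limma 3.58.1 in R 4.3.3 (lmFit, eBayes with a trend) on the 7 arrays together, with a term for each of the 4 groups (CMPs of either source, adult and fetal heart) and for chamber (2 residual degrees of freedom), and Benjamini-Hochberg adjustment over all genes tested (threshold 0.05). The atrial and ventricular arrays were paired across sources by chamber, as the labels give it. The difference between chamber pairs was an interaction term (1 residual degree of freedom). Tests were run on genes with a signal well above background on all arrays of 1 side or the other. A fold is given as "at least" where a side was dim on all its arrays: the brighter mean over the mean of, per dim array, the higher of the lowest signal well above background and the probe's own. Such a bound holds for the processed signal and need not hold under another background correction. The fit was tested on simulated data.

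Genes given on every array were the 10 largest non-overlapping calls a direction and comparison, those spanning at least 2 log2 units among CMPs, up to 6 spanning under 1, and Axin2, Lef1 and Tcf7; further genes were named after their values were seen. The members and lists were chosen with earlier results of these data known. Alternatives were normexp (offset 50), quantile normalization, the deposited log2 table, other filters on dim probes, the mean of a gene's probes, other priors, other terms and leaving out each array. A slide or scan block could not be fitted, since all arrays share 1 slide. Motif positions count from the start, with the base before it at -1.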

Additional observations from a re-analysis of the deposited data

Results flagged for a closer look

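Among the 35 genes seen in CMPs, 6 had 1 CMP sample far from the other 3, 4 of them in the postmortem atrial sample. Chance flags about 1 in 20 groups of 4 replicates with normal spread. The CMP samples differ in source and chamber and are not such replicates, and 9.41% of the 21827 genes seen in CMPs were as far apart. Dkk1, Wnt2, Rspo1 and Wnt8b were above background only on the array where they stood apart, so they had to be high there. Of the 25 genes above background on all 4 CMP arrays 2 stood apart, Fzd3 and Wisp2, beside 6.26% of 17517 genes. In the postmortem atrial sample Dkk1 read 0.22 (others -6.59 to -6.08), Wnt2 read -2.93 (others -6.64 to -6.12) and Wisp2 read 5.37 (others 7.43 to 7.69). Fzd3 read -1.17 there against -1.36 to -1.34, a small gap among values that otherwise lay close together. Rspo1 read -1.51 in the living atrial sample (others -4.38 to -3.98, all dim), and Wnt8b read -3.43 in the postmortem ventricular sample (others -5.98 to -5.60, all dim).

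The postmortem minus living difference was not the same in both chambers for 5 genes, by limma's interaction term, as ventricular minus atrial pair. The gap was -5.0 for Dkk2, 2.06 for Fzd4, 2.27 for Sfrp1, 2.12 for Sfrp2 and 2.28 for Wisp2. The spread behind this term came from the fetal pair alone.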

How the results depend on the processing

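Of 204 tested pairs of gene and comparison, 34 changed sign under at least 1 alternative, none of them among the 75 called and 1 among the 121 at an unadjusted p under 0.05, Wnt7a for adult minus fetal heart (-1.74, and 0.15 under normexp). Of the uncalled postmortem minus living values given in the text, Fzd2 became -0.01 with quantile normalization and Lrp5 ranged from -0.27 to 0.05 when an array was left out. For CMPs against fetal heart the count of 29 became 15 with the stricter filter on dim probes, and it ranged from 23 to 31 when an array was left out. For CMPs against adult heart the count of 23 became 14 with that filter and ranged from 21 to 26. For adult against fetal heart the count of 18 ranged from 14 to 26. The count of 0 for postmortem against living CMPs ranged from 0 to 14 when an array was left out, and the count of 0 between chambers from 0 to 10, becoming 1 with no filter. The count of 5 for the difference between chamber pairs became 0 with quantile normalization and 1 without a trend. The stricter filter tested fewer genes; for the other settings the cause was not tested. Of the called pairs of gene and comparison, 17 of 29, 15 of 23, 13 of 18 and 0 of 5 kept their call under all alternatives that tested them. The atrial and ventricular arrays are the pairs of the design: with no replicate block (no chamber term), the count for postmortem against living CMPs was 0, as with it. The interaction could not be fitted without a CMP or a fetal array. Normexp moved the adult minus fetal median of all genes from 0.09 to 0.14. Probes near background limit every difference with a dim side.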

Other observations

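The fetal hearts, 1 array each of wild type and the Myh6-EGFP line, differed by 2-fold or more for 12 of 45 genes above background in at least 1 of them (26.7%, 9 higher in the wild type), beside 3044 of 21857 genes (13.9%, 1628 higher in the wild type). A gene above background in only 1 of the 2 hearts, such as Dkk4 or Wnt2, could count only by being higher there. Rspo2 read 0.39 in the wild type and -3.68 in the transgenic heart, and Dkk4 read -2.63 and -6.35 (dim). Wnt2, a ligand of the early cardiac field, read -2.35 and -5.11 (dim). With 1 array each there is no test.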
